A study of Mus musculus with 93 samples.

Results

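This account follows 10 genes used as markers of retinal ganglion cells, out of 30235 genes in the deposited tables, in the mouse neural retina. They were taken by symbol: Rbpms, Thy1, Sncg, Nefl, Nefm, Nefh, Pou4f1, Pou4f2, Slc17a6 and Isl2. All 10 were found and all 10 passed the filter on low counts. The mice were untreated females, either homozygous for an Efemp1 knock-in allele (Efemp1ki/ki) or wild type, and each genotype was sampled at 3, 9 and 17 months of age. This gave 6 retina groups of 8 libraries, 48 of the 93 libraries of the series. The other 45 were posterior eyecups. Efemp1 encodes the secreted matrix protein fibulin-3, and the series title ties the knock-in to Doyne honeycomb retinal dystrophy. The labels give no strain and do not tie libraries to individual mice, so p-values measure the spread between libraries, which may in part be technical.

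Retinal ganglion cells are the output neurons of the retina. They collect signals from bipolar and amacrine cells and send them along the axons of the optic nerve to the brain. They make up a small share of retinal cells, and loss of these cells or of their axons is the lesion of glaucoma. Rbpms encodes an RNA-binding protein used as a marker of nearly all ganglion cells, Thy1 a surface glycoprotein of neurons, and Sncg gamma-synuclein. Nefl, Nefm and Nefh encode the light, medium and heavy neurofilament subunits that fill large axons. Pou4f1 (Brn3a), Pou4f2 (Brn3b) and Isl2 encode homeodomain transcription factors of ganglion cell development and identity. Slc17a6 encodes VGLUT2, the transporter that loads glutamate into synaptic vesicles of ganglion cells.

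The members lie on 5 autosomes in GRCm38, the build of the deposited tables. Rbpms (chr8:33782643-33929863) and Pou4f2 (chr8:78433010-78436645) are on the minus strand, and Thy1 (chr9:44043384-44048579) and Isl2 (chr9:55538672-55546180) on the plus strand. Chromosome 14 carries Sncg (chr14:34370274-34374789, minus strand), Pou4f1 (chr14:104461676-104467999, minus strand), Nefl (chr14:68083863-68089095, plus strand) and Nefm (chr14:68082590-68124846, minus strand). Nefh (chr11:4938754-4948064) is on the minus strand and Slc17a6 (chr7:51622006-51671119) on the plus strand. Nefl sits inside the annotated span of Nefm on the opposite strand, and the 2 genes share 1108 exonic bases. If strand was not used in counting, reads from those bases cannot be told apart between Nefl and Nefm. Promoter windows were found for 5 of the 10 members in RefSeq (GRCm38.p6), and the 250 bases before the start site are shown for them. Pou4f1, Pou4f2, Slc17a6 and Isl2 were lower together at 9 months than at 3, and Sncg did not pass that test. Capitals mark matches, on either strand and with overlaps counted, to 6 motifs searched, namely the TATA box (TATAAA), the GC box (GGGCGG), a homeodomain core (TAATTA), an E-box (CAGCTG), the octamer (ATGCAAAT) and the CCAAT box.
Pou4f1: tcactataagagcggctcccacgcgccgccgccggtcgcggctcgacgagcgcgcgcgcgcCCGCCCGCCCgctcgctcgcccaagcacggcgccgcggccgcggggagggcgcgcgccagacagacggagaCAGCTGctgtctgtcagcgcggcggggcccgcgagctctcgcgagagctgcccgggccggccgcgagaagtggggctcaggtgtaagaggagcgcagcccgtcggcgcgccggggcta
Pou4f2: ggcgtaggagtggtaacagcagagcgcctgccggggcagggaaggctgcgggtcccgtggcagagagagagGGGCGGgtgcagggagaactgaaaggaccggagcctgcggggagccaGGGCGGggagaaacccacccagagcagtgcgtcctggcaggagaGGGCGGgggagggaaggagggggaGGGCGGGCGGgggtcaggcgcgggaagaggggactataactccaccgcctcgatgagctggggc
Slc17a6: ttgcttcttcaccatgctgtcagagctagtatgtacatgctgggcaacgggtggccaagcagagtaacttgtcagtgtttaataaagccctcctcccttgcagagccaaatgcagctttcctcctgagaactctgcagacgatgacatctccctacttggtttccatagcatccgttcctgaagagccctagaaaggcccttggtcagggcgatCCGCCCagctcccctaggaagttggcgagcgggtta
Isl2: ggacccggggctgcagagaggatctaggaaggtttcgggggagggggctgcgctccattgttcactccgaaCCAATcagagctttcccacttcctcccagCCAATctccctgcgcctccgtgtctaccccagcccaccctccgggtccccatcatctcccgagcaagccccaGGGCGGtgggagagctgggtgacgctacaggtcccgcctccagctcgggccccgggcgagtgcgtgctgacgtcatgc
Sncg: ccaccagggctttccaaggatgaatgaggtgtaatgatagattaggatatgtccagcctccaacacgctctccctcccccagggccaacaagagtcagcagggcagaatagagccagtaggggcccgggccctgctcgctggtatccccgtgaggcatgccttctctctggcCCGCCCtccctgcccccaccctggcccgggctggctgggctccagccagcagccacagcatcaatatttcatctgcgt
These windows are chr14:104468000-104468249, chr8:78436648-78436897, chr7:51621580-51621829, chr9:55540899-55541148 and chr14:34374670-34374919, in the order printed and each read on the strand of its gene. They lie before RefSeq start sites, which need not match the gene spans given above. The Isl2 window falls inside the span of Isl2, and the Sncg window partly overlaps that of Sncg. All 5 hold GGGCGG, which 32.7% of 32851 RefSeq promoter windows of that length hold. Pou4f2 has 5 matches and Pou4f1 has 2, which overlap. Pou4f1 also holds CAGCTG, found in 13.0% of windows, and Isl2 holds 2 matches to CCAAT, found in 33.9%. None of these 5 windows holds the TATA box (12.4% of windows), the octamer (1.60%) or the homeodomain core (4.84%). A further Slc17a6 start site has a match to the homeodomain core. GC content was 78.0% for Pou4f1, 70.8% for Pou4f2, 66.8% for Isl2, 61.6% for Sncg and 53.2% for Slc17a6, against a median of 52.4% over all windows. A match of letters is a description and says nothing of binding.

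Retina libraries held 9218127 to 37475492 estimated counts (median 16813522), and the members from 38 counts (Isl2) to 14426 (Nefl) in a library. All markers listed for rods, cones, bipolar, amacrine, horizontal and Mueller cells were above 0 in all 48 libraries. In 3 libraries the profile over all expressed genes stood apart from its group: Efemp1ki/ki library 5 at 3 months, wild-type library 7 at 9 months and wild-type library 2 at 17 months. Values without these 3 libraries stand beside the comparisons in which they change a call or a count by over 1.5 times. Efemp1 itself ranged from 48.2 to 84.7 CPM (counts scaled to library size with TMM factors) in Efemp1ki/ki retinas and from 46.6 to 78.1 CPM in wild-type retinas. A knock-in need not change the amount of transcript, so this does not check the genotype labels.

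Per unit of length, Nefl was the most abundant member and Isl2 the least. On the authors' deposited TPM scale, the median over 48 retinas was 346.2 for Nefl, 215.6 for Thy1, 177.2 for Sncg and 90.02 for Nefm. It was 52.2 for Slc17a6, 50.9 for Nefh and 48.8 for Rbpms, then 19.1 for Pou4f1, 10.7 for Pou4f2 and 7.40 for Isl2. The structural and surface genes thus stood above the 3 transcription factor genes. Within a library this order held in 48 of 48 for 7 of the 9 neighbouring pairs. It held in 35 of 48 for Slc17a6 above Nefh and in 24 of 48 for Nefh above Rbpms, so these 3 genes could not be ordered beyond their spread. Every member had a higher median TPM in the retina than in the posterior eyecup, which is the eye without lens and retina. The ratio was 13.5 for Isl2, 12.0 for Pou4f2, 11.6 for Slc17a6, 11.2 for Nefm, 10.4 for Nefl, 8.67 for Pou4f1 and 7.80 for Nefh. It was lower for Sncg at 5.64, for Thy1 at 4.87 and for Rbpms at 1.40. The Rbpms ranges of the tissues overlapped, at 40.4 to 55.9 TPM in retinas and 28.8 to 47.5 TPM in eyecups. The tissues were compared by level only, without a test.

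**Figure D1:**
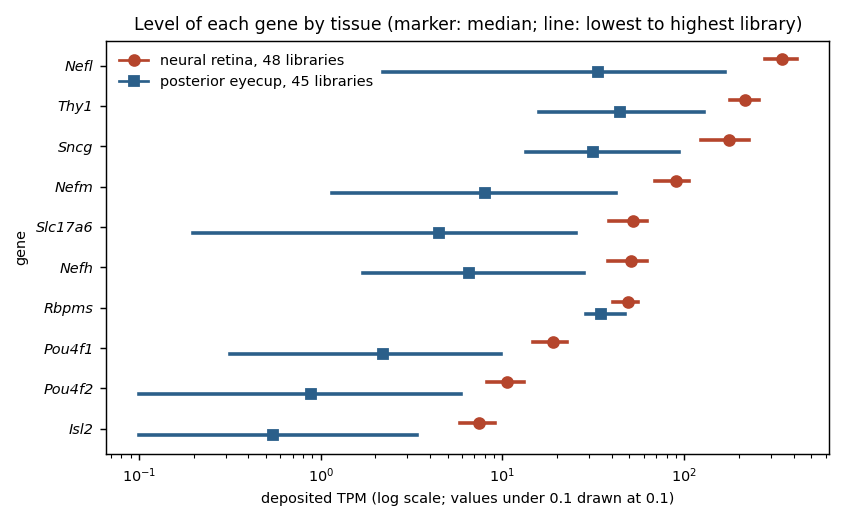
Deposited TPM (log axis) of each gene in 48 neural retinas (circles) and 45 posterior eyecups (squares), with the median as marker and the lowest to highest library as line. Rbpms has overlapping ranges and a retina median 1.40 times that of the eyecup, while the ratio for Isl2 is 13.5.

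The first age interval asks how these genes differ between young adult and middle-aged retinas, as the mean of both genotypes. At 9 months, 9 of the 10 members were lower than at 3 months and none was higher, with log2 fold changes from -0.28 to -0.11. Of all 17240 genes tested, 34% passed in either direction and 16.6% were lower (edgeR quasi-likelihood test, adjusted p under 0.05). The median log2 fold change was -0.23 over the members and 0.0033 over all genes. In bulk tissue, fewer ganglion cells, less RNA per ganglion cell and more RNA from other cells cannot be told apart. Each age is also a separate set of libraries, so age cannot be told apart from any difference in handling between the sets. Levels by group are given as the lowest, median and highest CPM of 8 libraries.

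Among the neurofilaments, Nefl, the core subunit of the polymer, had the highest CPM. Nefl at 3 months had 389, 452 and 482 CPM in Efemp1ki/ki retinas and 443, 459 and 522 CPM in wild type. Nefl at 9 months had 333, 382 and 409.7 CPM in Efemp1ki/ki retinas and 333, 396 and 426 CPM in wild type. Nefl at 17 months had 296, 361 and 399 CPM in Efemp1ki/ki retinas and 361, 387 and 406 CPM in wild type. All 16 libraries of 9 months lay below the median of those of 3 months, though the ranges overlapped. Nefl averaged 381 ± 31.8 CPM at 9 months and 457 ± 28.8 CPM at 3 months (SD, n = 16 each), a log2 fold change of -0.26 ± 0.04 (SE, adjusted p = 3.13e-07). Nefm, the medium subunit, averaged 119.9 ± 11.5 CPM at 9 months and 138.9 ± 8.98 CPM at 3 months, with a log2 fold change of -0.21 ± 0.04 (adjusted p = 0.000101). Nefh, the heavily phosphorylated heavy subunit, averaged 78.0 ± 7.70 CPM at 9 months and 89.4 ± 6.92 CPM at 3 months, with a log2 fold change of -0.20 ± 0.05 (adjusted p = 0.000932). The 3 subunits fell together, and 15 of 16 libraries of 9 months lay below the 3-month median for Nefm and for Nefh.

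The transcription factors and the transporter fell by similar amounts. Pou4f1 at 3 months had 25.7, 28.3 and 31.7 CPM in Efemp1ki/ki retinas and 27.6, 29.9 and 33.5 CPM in wild type. Pou4f1 at 9 months had 20.6, 24.3 and 27.3 CPM in Efemp1ki/ki retinas and 19.5, 26.5 and 27.9 CPM in wild type. Pou4f1 at 17 months had 20.9, 22.9 and 26.8 CPM in Efemp1ki/ki retinas and 22.8, 25.6 and 26.8 CPM in wild type. Here too 16 of 16 libraries of 9 months were below the 3-month median, with a log2 fold change of -0.24 ± 0.04 (adjusted p = 2.61e-05). Pou4f2, needed for ganglion cell differentiation, averaged 10.6 ± 1.28 CPM at 9 months and 12.5 ± 1.43 CPM at 3 months (-0.24 ± 0.06, adjusted p = 0.000978). Isl2, found in a subset of ganglion cells, averaged 4.40 ± 0.597 CPM at 9 months and 5.17 ± 0.790 CPM at 3 months (-0.24 ± 0.07, adjusted p = 0.00757).

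Slc17a6 had the largest decrease of the 10. Slc17a6 at 3 months had 68.9, 76.2 and 88.0 CPM in Efemp1ki/ki retinas and 69.6, 78.3 and 86.5 CPM in wild type. Slc17a6 at 9 months had 57.7, 60.9 and 67.0 CPM in Efemp1ki/ki retinas and 52.0, 68.9 and 79.6 CPM in wild type. Slc17a6 at 17 months had 50.5, 60.5 and 67.4 CPM in Efemp1ki/ki retinas and 54.6, 65.4 and 70.4 CPM in wild type. In Efemp1ki/ki retinas the 9-month and 3-month ranges did not overlap, whereas in wild type they did. The share of all genes with separate ranges was not counted. The log2 fold change over both genotypes was -0.28 ± 0.05 (adjusted p = 3.53e-06).

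Of the remaining markers, Thy1 averaged 135.7 ± 8.27 CPM at 9 months and 159.4 ± 13.5 CPM at 3 months (-0.23 ± 0.04, adjusted p = 1.40e-05). Rbpms averaged 32.4 ± 2.46 CPM at 9 months and 35.1 ± 3.07 CPM at 3 months, and its log2 fold change of -0.11 ± 0.04 was the smallest among those that passed (adjusted p = 0.0171). Sncg did not pass, at 53.1 ± 8.30 CPM at 9 months and 57.3 ± 6.57 CPM at 3 months (-0.11 ± 0.07, 95% interval -0.26 to 0.041, adjusted p = 0.263). Its libraries were also the most scattered within groups, with an SD of 0.21 log2 units, against 0.11 for Rbpms and for Nefl. Rbpms and Isl2 no longer passed on the log2(TPM + 1) scale (-0.054 and -0.060; adjusted p = 0.200 and 0.369) or with covariates for lens, pigment epithelium and rod markers (-0.078 and -0.18; adjusted p = 0.359 and 0.239). The other 7 calls held in all 12 alternatives, 9 members were lower without the 3 libraries that stood apart, and all 10 log2 fold changes were below 0 in each.

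**Figure D2:**
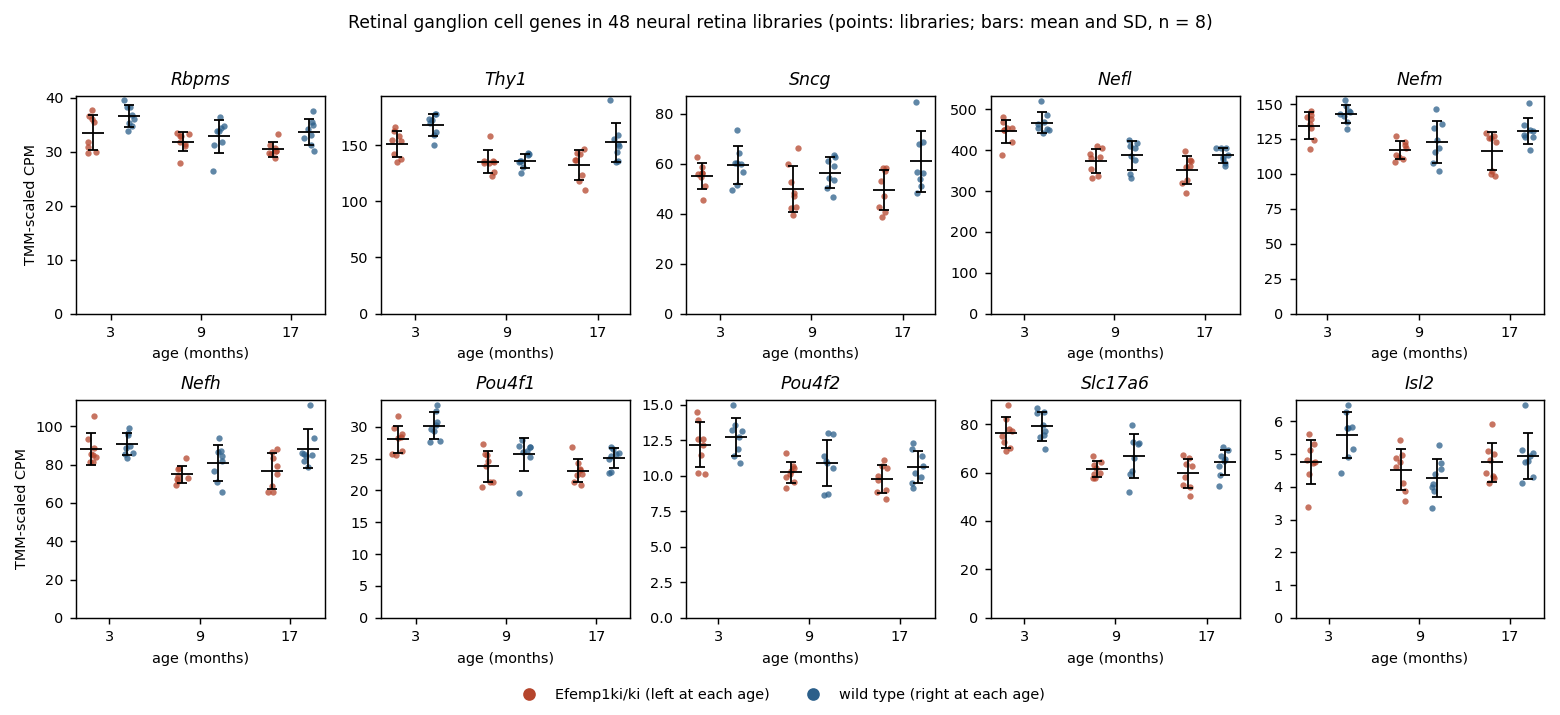
TMM-scaled CPM of the 10 genes by age (months) in Efemp1ki/ki (left of each pair, red) and wild-type retinas (right, blue), with each library as a point and the mean with SD over 8 libraries as bars. Nefl, Pou4f1 and Slc17a6 stand higher at 3 months than at 9 and 17 months, and Sncg shows wide scatter.

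Lists of related genes gave mixed counts at 9 months, to be read beside the 16.6% of all genes that were lower. Of 12 other ganglion cell markers tested, 7 fell and 1 rose. Tubb3, the neuronal beta-tubulin gene, had a log2 fold change of -0.26 ± 0.06, the transcription factor gene Ebf1 -0.26 ± 0.04, and Nrn1, encoding the membrane-anchored protein neuritin, -0.17 ± 0.05. Stmn2, Pou4f3 and Ebf3 were also among those that fell, and Isl1, which bipolar and amacrine cells share, was the member that rose (0.14 ± 0.03). Of 16 subtype markers, 5 fell, among them Cartpt (-0.17 ± 0.06), Kcng4, Chrna6 and Eomes, the last a marker of intrinsically photosensitive ganglion cells. Of 13 axonal cytoskeleton genes, which include Tubb3 and Stmn2, 9 fell and none rose. Map1a, a microtubule-associated protein gene, had a log2 fold change of -0.35 ± 0.05, the internexin gene Ina -0.19 ± 0.03, and the axonal kinesin gene Kif5a -0.16 ± 0.03. Mapt, Stmn3, Map1b and Gap43 completed the 9. Of 12 excitability genes, 7 fell, among them the sodium channel genes Scn4b (-0.28 ± 0.06) and Scn1a (-0.21 ± 0.05) and the potassium channel gene Kcna1 (-0.25 ± 0.06). Cntn1, Cntnap2 and Kcna2 were also among those that fell, while Scn8a (0.19 ± 0.03) and Nfasc (0.11 ± 0.03), both of the axon initial segment, rose. Among 11 genes of axon injury and stress, Jun fell by 0.33 on the log2 scale, with Klf6 and Bbc3 also lower, and 8 did not pass. Of 9 neurotrophin receptor and ligand genes, Gfra1 (-0.11 ± 0.04) and Ngfr (-0.13 ± 0.05) fell and 7 did not pass.

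Markers of other cells moved in the same comparison. Rod markers were lower in 6 of 10, and their summed level was 49874 to 59072 CPM at 9 months and 53645 to 67463 CPM at 3 months. Cone markers were lower in 5 of 8 and higher in 1. Amacrine markers were lower in 3 of 9, at a sum of 865 to 1022 CPM at 9 months and 920.5 to 1088 CPM at 3 months. Horizontal cell markers were lower in 1 of 4, and Mueller glia markers were lower in 3 of 8 and higher in 1. Bipolar markers were higher in 3 of 8 and lower in 1. Microglia markers were higher in 6 of 9, at a sum of 42.3 to 55.1 CPM at 9 months and 35.8 to 44.6 CPM at 3 months. None of the listed defining markers of these types was at 0 in any library. With covariates for rod, lens and pigment epithelium markers, the log2 fold changes of the 7 members still called ran from -0.35 (Slc17a6) to -0.20 (Thy1). The part of the other cell types in the result was not tested.

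From 9 to 17 months none of the 10 members passed, while 27% of all genes did and 12.7% were higher and 14.3% lower. The log2 fold changes, 17 over 9 months, ran from -0.055 (Pou4f2) to 0.15 (Isl2), with 5 of the 10 below 0. Isl2 came nearest, at 4.85 ± 0.642 CPM at 17 months and 4.40 ± 0.597 CPM at 9 months (SD, n = 16 each; 0.15 ± 0.07, unadjusted p = 0.0429, adjusted p = 0.117). For Nefl the 95% interval was -0.12 to 0.029 and for Slc17a6 -0.14 to 0.039, so a further decrease of the size seen by 9 months lay outside each of these intervals. DESeq2 and limma voom also called 0 members, and 38.1% of all genes had an unadjusted p under 0.05 with edgeR. In the same interval Atf3, a transcription factor gene induced by axon injury, rose (0.49 ± 0.06, adjusted p = 8.98e-08), with 10.9 CPM at 17 months and 7.74 CPM at 9 months on average. Jun (0.23 ± 0.04), Ecel1 (0.71 ± 0.19) and Bbc3 (0.28 ± 0.11) rose too, making 4 of 11 injury and stress genes higher and none lower. Map1a (0.28 ± 0.05) and Kif5a (0.12 ± 0.03) rose, and with no gene lower they were the calls among 13 axonal cytoskeleton genes. Of 12 other ganglion cell markers, 2 rose, among them Irx3 (0.32 ± 0.10), and Isl1 fell. Of 16 subtype markers, 4 fell: Penk (-0.60 ± 0.17), Adcyap1 (-0.39 ± 0.10), Igf1 (-0.20 ± 0.08) and Jam2 (-0.19 ± 0.03), the last marking a type of direction-selective ganglion cell. Of 12 excitability genes, 4 rose, among them Kcna1, Kcnc1 and Scn4b, and Kcnip4 and Cntnap2 fell, and Cntfr rose among 9 neurotrophin genes (0.16 ± 0.04). Microglia markers were higher in 5 of 9 and rod markers in 4 of 10.

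Across the whole span, 17 against 3 months, 7 members were lower in Efemp1ki/ki retinas and 4 in wild-type retinas. Of all genes, 18.8% passed in Efemp1ki/ki and 17.8% in wild type, and 9.01% and 7.92% were lower. In Efemp1ki/ki the log2 fold changes were -0.36 ± 0.06 for Slc17a6, -0.34 ± 0.05 for Nefl, -0.32 ± 0.08 for Pou4f2 and -0.28 ± 0.06 for Pou4f1. They were -0.21 ± 0.06 for Nefm, -0.20 ± 0.07 for Nefh and -0.19 ± 0.06 for Thy1. The Slc17a6 ranges did not overlap, at 50.5 to 67.4 CPM at 17 months and 68.9 to 88.0 CPM at 3 months. In wild type the calls were Slc17a6 (-0.31 ± 0.06), Nefl (-0.27 ± 0.05), Pou4f1 (-0.27 ± 0.06) and Pou4f2 (-0.27 ± 0.08). The wild-type ranges of Nefl did not overlap, at 361 to 406 CPM at 17 months and 443 to 522 CPM at 3 months, nor did those of Pou4f1. Separate ranges were not counted over all genes, so they are not shown to be a trait of the members. Rbpms, Sncg and Isl2 passed in neither genotype. The unequal counts do not show that the genotypes aged differently. The test of that difference called 0 members, and 0 genes of 17240 with edgeR (690 genes, or 4%, at an unadjusted p under 0.05). DESeq2 and limma voom also called 0 members. In edgeR's test Nefh had the smallest unadjusted p among the members (interaction -0.16 ± 0.09, adjusted p = 1). Without the libraries that stood apart, 7 members were lower in each genotype. Of 17305 genes, 1281 were then lower in Efemp1ki/ki, against 1553 with all libraries, and 1821 in wild type, against 1366. Thy1 (-0.19), Nefm (-0.17) and Isl2 (-0.24) then joined the wild-type calls, and in Efemp1ki/ki Rbpms (-0.16, adjusted p = 0.0499) joined while Nefh (-0.17, adjusted p = 0.0501) missed the threshold.

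Gene lists around the members gave mixed counts over this span. They are to be read beside the 9.01% of all genes lower in Efemp1ki/ki and the 7.92% lower in wild type. In either direction, 18.8% and 17.8% of all genes passed. Of 12 other ganglion cell markers, 3 were lower in Efemp1ki/ki (Nrn1, Stmn2 and Ebf1) and 5 in wild type (Stmn2, Nrn1, Pou4f3, Ebf3 and Rbpms2). Of 16 subtype markers, 5 were lower in Efemp1ki/ki (Jam2, Eomes, Adcyap1, Igf1 and Cartpt) and 3 in wild type (Adcyap1, Eomes and Jam2). Of 13 axonal cytoskeleton genes, Gap43, Stmn2, Ina and Mapt were lower in Efemp1ki/ki and Stmn2 and Ina in wild type, and Sptbn4 was higher in each. Of 12 excitability genes, Cntn1, Cntnap2 and Kcnip4 were lower and Scn8a higher in each genotype. Atf3 was higher in each, with log2 fold changes of 0.54 ± 0.09 in Efemp1ki/ki and 0.52 ± 0.09 in wild type. Klf6 and Sox11 were lower in Efemp1ki/ki and Ecel1 was higher in wild type, among 11 injury and stress genes. Gfra1 was the neurotrophin gene lower in Efemp1ki/ki, and 0 of 9 passed in wild type with edgeR. Amacrine markers were lower in 4 of 9 in Efemp1ki/ki and 1 of 9 in wild type. Their sum in Efemp1ki/ki was 817 to 948 CPM at 17 months and 920.5 to 1051 CPM at 3 months, and in wild type it was 899 to 1016 CPM at 17 months and 959 to 1088 CPM at 3 months. Microglia markers were higher in 7 of 9 in Efemp1ki/ki and 6 of 9 in wild type. Pigment epithelium markers were higher in 4 of 8 in Efemp1ki/ki and 0 of 8 in wild type, and astrocyte and gliosis markers in 3 of 6 (Edn2, Gfap and S100b) and 1 of 6 (Edn2). Rod markers were lower in 2 of 10 in Efemp1ki/ki, where 1 was higher, and in 3 of 10 in wild type, with Nrl and Pde6g lower in each. Cone markers were lower in 3 of 8 in Efemp1ki/ki and 4 of 8 in wild type. Corneal and conjunctival epithelium markers were lower in 4 of 5 tested in wild type, at a sum of 5.36 to 41.1 CPM at 17 months and 8.07 to 286 CPM at 3 months, and in 0 of 5 in Efemp1ki/ki. With covariates for rod, lens and pigment epithelium markers the same numbers of members, 7 in Efemp1ki/ki and 4 in wild type, were called. Of all 17240 genes, 2285 then passed in Efemp1ki/ki, against 3233 without covariates, and 2226 in wild type, against 3071. The log2 fold changes of the called members then ran from -0.37 to -0.21 in Efemp1ki/ki and from -0.36 to -0.28 in wild type. The part of the other cells in the member differences was not tested.

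The genotype comparison asks how the same genes differ with the knock-in, first with the 3 ages averaged and then age by age. Averaged over age, 4 of the 10 members were lower in Efemp1ki/ki than in wild-type retinas and none was higher. Among all genes 5.24% passed and 2.69% were lower. All 10 log2 fold changes were below 0, from -0.20 to -0.069, with a median of -0.11, against -0.0021 over all genes, of which 51.1% were below 0. The 4 that passed had fitted ratios of 0.872 to 0.929, Efemp1ki/ki over wild type. They held unequally over 11 alternatives, with Thy1 called in 9, Rbpms in 6, Sncg in 4 and Nefm in 3.

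Thy1 had the smallest p. Thy1 at 3 months had 135, 154 and 166 CPM in Efemp1ki/ki retinas and 149.9, 171 and 177 CPM in wild type (lowest, median and highest). Thy1 at 9 months had 122, 135 and 158 CPM in Efemp1ki/ki retinas and 125, 136 and 143 CPM in wild type. Thy1 at 17 months had 109.7, 137 and 146 CPM in Efemp1ki/ki retinas and 135, 150.1 and 190 CPM in wild type. The groups overlapped at every age, and at 3 and at 17 months all 8 Efemp1ki/ki libraries lay below the wild-type median. The Thy1 mean over 24 libraries was 139 ± 14.2 CPM (SD) for Efemp1ki/ki, against 152 ± 17.5 CPM for wild type (-0.12 ± 0.03, adjusted p = 0.0199).

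Sncg had the largest difference and the widest scatter. Sncg at 3 months had 45.5, 56.1 and 62.6 CPM in Efemp1ki/ki retinas and 49.3, 60.02 and 73.4 CPM in wild type. Sncg at 9 months had 39.5, 47.7 and 66.3 CPM in Efemp1ki/ki retinas and 46.7, 56.7 and 63.4 CPM in wild type. Sncg at 17 months had 38.6, 50.1 and 58.3 CPM in Efemp1ki/ki retinas and 48.2, 56.4 and 84.7 CPM in wild type. The ranges overlapped at each age, with 18 of 24 Efemp1ki/ki libraries below the wild-type median. The log2 fold change was -0.20 ± 0.06 (adjusted p = 0.0457).

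The Rbpms mean was 31.9 ± 2.55 CPM for Efemp1ki/ki, against 34.4 ± 2.91 CPM for wild type (SD over 24 libraries each), with 20 of 24 Efemp1ki/ki libraries below the wild-type median (-0.11 ± 0.03, adjusted p = 0.0326). For Nefm it was 122.7 ± 13.0 CPM for Efemp1ki/ki, against 132 ± 13.4 CPM for wild type (-0.11 ± 0.03, adjusted p = 0.0498). The other 2 neurofilament genes stood just outside the threshold, Nefh at -0.12 ± 0.04 (adjusted p = 0.0568) and Nefl at -0.086 ± 0.03 (adjusted p = 0.0823). Pou4f1 was likewise near it (-0.11 ± 0.04, adjusted p = 0.0535). Slc17a6 (-0.092 ± 0.04, adjusted p = 0.124), Pou4f2 (-0.087 ± 0.05, adjusted p = 0.282) and Isl2 (-0.069 ± 0.06, adjusted p = 0.522) did not pass. Without the 3 libraries that stood apart, Thy1 was the 1 member called, beside 1076 of 17305 genes (903 of 17240 in the reported fit). Separately, without the 6 whose GC trend lay far from their group median, Thy1 was again the 1 member called, beside 1169 of 17479 genes. With covariates for lens, pigment epithelium and rod markers 0 members were called, beside 283 of 17240 genes. On the log2(TPM + 1) scale 0 members were called too, but beside 2008 of 17240 genes. With the covariates the log2 fold changes were -0.12 for Thy1, -0.098 for Rbpms, -0.21 for Sncg and -0.13 for Nefm, close to the values above. On log2(TPM + 1) they were -0.071 for Thy1, -0.057 for Rbpms, -0.14 for Sncg and -0.074 for Nefm. DESeq2 and limma voom each called 6 members, beside 1270 and 1844 of all 17240 genes. No member turned to a positive value in any of the 11 alternatives.

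Age by age, 0 members were called at 3, 9 or 17 months with edgeR, where 1.83%, 0% and 0.406% of all genes passed. The first and last of these shares moved without the 3 libraries that stood apart, with 611 genes called at 3 months, against 316 with all libraries, and 1 gene at 17 months, against 70. At each of the 3 ages 0 members were called without them too. At an unadjusted p under 0.05 there were 3394, 1047 and 2624 genes (19.7%, 6.07% and 15.2%). At 3 months the smallest p among the members was that of Thy1 (-0.15 ± 0.06, adjusted p = 0.129), and Rbpms (-0.13 ± 0.05) and Isl2 (-0.23 ± 0.10) also had intervals below 0. Isl2 was below the wild-type median in all 8 Efemp1ki/ki libraries, with a median of 4.78 CPM for Efemp1ki/ki, against 5.79 CPM for wild type. At 9 months 9 of the 10 were below 0 and Isl2 was at 0.084 ± 0.10, and the adjusted p of each member was at least 0.808. At 17 months Thy1 came nearest (-0.21 ± 0.06, adjusted p = 0.0841), followed by Nefh (-0.20 ± 0.07, adjusted p = 0.131) and Sncg (-0.30 ± 0.10, adjusted p = 0.152). Rbpms (-0.15 ± 0.05), Nefm (-0.16 ± 0.06) and Nefl (-0.14 ± 0.05) also had intervals below 0 at this age, while those of Pou4f1, Pou4f2, Slc17a6 and Isl2 included 0. Limma voom called Thy1 at 3 months (adjusted p = 0.0216), DESeq2 called it at 17 months (adjusted p = 0.0368), and neither called a member at 9 months. Of all 17240 genes, voom called 1927 at 3 months and DESeq2 called 272 at 17 months.

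**Figure D3:**
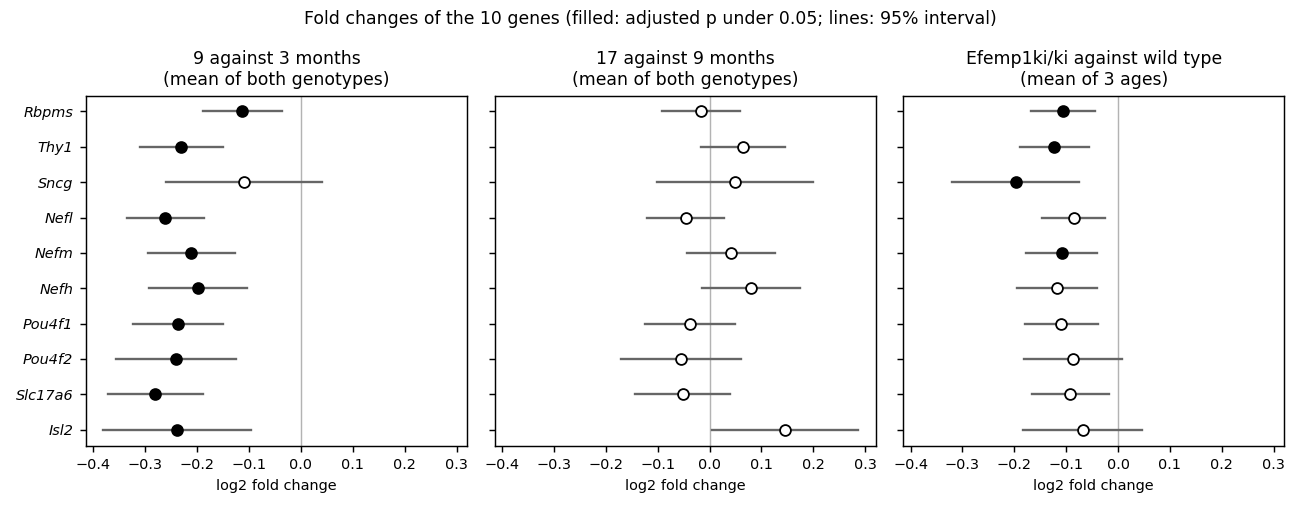
Log2 fold change (horizontal axis) of the 10 genes with 95% interval, for 9 against 3 months, 17 against 9 months and Efemp1ki/ki against wild type, with filled points at an adjusted p under 0.05. In the left panel 9 genes are called lower, in the middle panel 0, and in the right panel 4.

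Averaged over age, 7 of 12 other ganglion cell markers were lower in Efemp1ki/ki and none was higher. Tubb3 had a log2 fold change of -0.18 ± 0.05 (adjusted p = 0.0201), the ubiquitin hydrolase gene Uchl1 -0.15 ± 0.04, the complexin gene Cplx1 -0.15 ± 0.04 and Nrn1 -0.13 ± 0.04. Rbpms2, Stmn2 and Ebf3 completed the 7. None of 16 subtype markers passed with edgeR, the smallest p belonging to Mmp17 (-0.12 ± 0.04, unadjusted p = 0.0123) and Chrna6 (-0.10 ± 0.04, unadjusted p = 0.0203). Of 13 axonal cytoskeleton genes, 4 were lower: Ina (-0.12 ± 0.03, adjusted p = 0.00315), Mapt (-0.069 ± 0.02), Tubb3 and Stmn2. Cntfr, the receptor gene for ciliary neurotrophic factor, was lower among 9 neurotrophin genes (-0.13 ± 0.03, adjusted p = 0.0176). None of 11 injury and stress genes passed with edgeR, with Gadd45a (-0.11 ± 0.05) and Gal (-0.41 ± 0.19) at the smallest p. At single ages, Ina and Cntfr were lower at 3 months and Mapt, Gap43 and Ina at 17 months.

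Other retinal and neighbouring cell markers varied beside this comparison. Of 9 amacrine markers 0 passed but 9 were below 0, and their summed level was 817 to 1051 CPM in Efemp1ki/ki and 899 to 1088 CPM in wild type. Of 10 rod markers 0 passed and 10 were below 0, at 49433 to 63553 CPM in Efemp1ki/ki and 49874 to 67670 CPM in wild type. Mueller glia markers were lower in 3 of 8, at 3764 to 4424 CPM in Efemp1ki/ki and 3849 to 4870 CPM in wild type, and bipolar markers in 3 of 8. The 3 lens markers tested were higher, and the lens sum was 0.134 to 1024 CPM in Efemp1ki/ki and 0 to 42.8 CPM in wild type. Each of the 7 lens markers in the tables was at 0 in some retinas. Of 8 pigment epithelium markers 0 passed, at a sum of 38.9 to 326 CPM in Efemp1ki/ki and 44.3 to 244 CPM in wild type. The part of these cell types in the member differences was not tested beyond the covariate alternative above.

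Within groups, the members varied together from library to library. Over 45 gene pairs, the Pearson correlation of deviations from the group mean (log2 CPM, 48 libraries) ran from -0.076 to 0.82 with a median of 0.43, and 43 were above 0. These are descriptions over libraries that share depth and composition. Among the neurofilaments the value was 0.82 for Nefm and Nefh, 0.80 for Nefl and Nefm, which share exonic bases, and 0.61 for Nefl and Nefh. Other high values were 0.77 for Nefl and Pou4f1, 0.77 for Thy1 and Sncg, 0.67 for Thy1 and Nefh, 0.66 for Nefl and Slc17a6, and 0.61 for Pou4f1 and Pou4f2. Isl2, the member with the fewest counts, had low values, down to -0.076 with Slc17a6. Some libraries were low or high for most members. Efemp1ki/ki libraries 3 and 5 at 17 months were below their group median for all 10 members and held the lowest value for 5 and 4 of them. Wild-type library 2 at 3 months held the highest value for 7 of 10, while wild-type library 7 at 3 months and library 8 at 17 months were below the median for all 10.

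**Figure D4:**
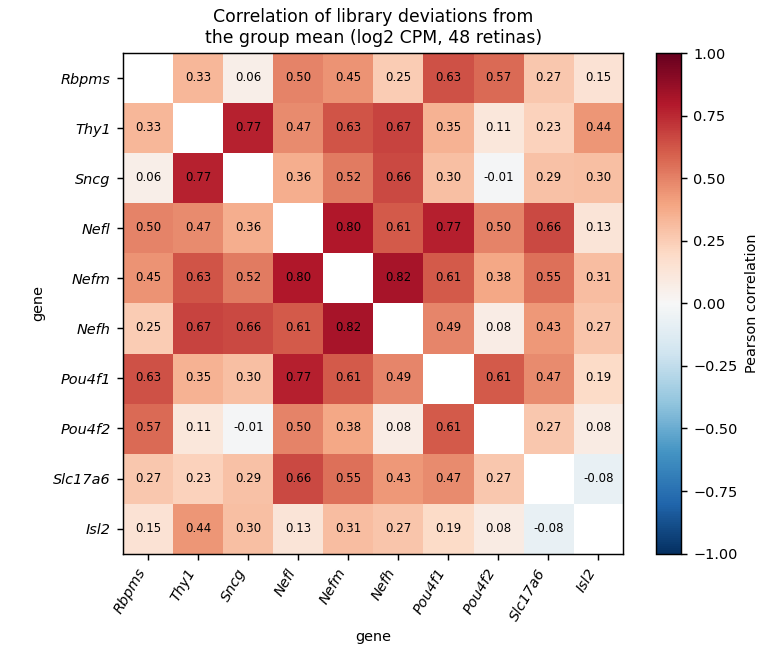
Pearson correlation between genes (both axes) of library deviations from the group mean, log2 CPM over 48 retinas, coloured from blue at -1 to red at 1. Nefm and Nefh reach 0.82, and Slc17a6 with Isl2 is lowest at -0.08.

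The mean standardised deviation of the 10 members followed that of a few further genes. Among 10954 genes with a mean of at least 3 log2 CPM, the 8 most alike in Pearson correlation over 48 libraries were Nrn1 (0.77), Nsg1 (0.77), Magee1 (0.76), Ndrg4 (0.74), Vsnl1 (0.74), Dynll2 (0.73), Rbfox1 (0.73) and Ppp2r2c (0.72). Nrn1 is itself on the list of other ganglion cell markers. The 4 least alike were Gm14508 (-0.71), Sprtn (-0.64), Fyco1 (-0.63) and Lman1l (-0.61). The 8 most alike were each lower at 9 than at 3 months, with log2 fold changes from -0.18 (Nsg1) to -0.13 (Ndrg4). In the genotype mean 6 of these 8 passed, all lower in Efemp1ki/ki, and Dynll2 and Ppp2r2c did not. Among all genes 16.6% were lower at 9 than at 3 months and 2.69% in the genotype mean. The 8 genes were picked from these same libraries for likeness to the members, so their calls are not separate evidence. The member mean correlated 0.66 with the amacrine marker sum and 0.23 with the Mueller sum, and -0.092 with the rod sum, -0.036 with the GC trend and 0.033 with log2 library total. Amacrine markers thus moved with the members within groups, and their part in the member differences was not tested.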

How the data were processed

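Per the labels' protocols, sequencing libraries came from the TruSeq Stranded mRNA kit, and the submitters' processing notes name build GRCm38.p4. For aligner, counter and strand setting, the sources used here name none. Estimated counts per gene, as deposited by the authors, were rounded to whole numbers for tests. Their TPM table sums to 1030881 to 1047972 per retina library over all genes, and to 1000000 over protein-coding genes. The deposited values were thus treated as a score, for levels between genes and 1 alternative. A single column (1) of either table matched no sample and was not used.

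Genes passing filterByExpr (17240) were fitted over all 48 retinas with edgeR 4.0.16 in R 4.3.3 (TMM, 6 group means, quasi-likelihood F test, Benjamini-Hochberg adjustment over all genes, threshold 0.05). SE and intervals come from the F statistic. Levels are CPM on TMM-scaled library sizes, with the SD between libraries. Alternatives used RLE size factors, no filter, only the groups compared, a replicate block, DESeq2 1.42.0, limma 3.58.1 (voom with quality weights, and log2(TPM + 1) with pseudocount 1), marker covariates, GC offsets and fewer libraries. GC content was known for 99.6% of genes. Libraries with an extreme GC trend were 6 whose trend lay far from their group median. They were Efemp1ki/ki library 5 at 3 months, wild-type libraries 1 and 7 at 9 months and 1, 2 and 3 at 17 months. Leaving them out was chosen after seeing the data.

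The members and gene lists were chosen with earlier results of these data known. All 10 members entered every comparison. In the related lists called genes are named or, where none passed, the 2 with the smallest p; some listed genes are not reported here. Genes most and least like the member mean (8 and 4) were taken by correlation over libraries. Reads are not independent molecules, and replicate spread, not counting error, entered each test. The closest pair of libraries within a group differed 2.2 times more than sampling noise (chi-square per degree of freedom, 168 pairs). No library was thus a copy of another in its group, and pairs from different groups were not compared. The fit was tested on simulated data.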

Additional observations from a re-analysis of the deposited data

Results flagged for a closer look

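Of 60 sets of 8 libraries (10 genes in 6 groups), 3 held a library far from the others by Dixon's criterion at the 95% level, which flags about 1 in 20 by chance. Rbpms in Efemp1ki/ki library 2 at 9 months was low, at 4.81 log2 CPM (28.0 CPM), against 4.97 in the next library. Thy1 in Efemp1ki/ki library 7 at 9 months was high, at 7.30 log2 CPM (157.9 CPM), against 7.09 in the next. Pou4f1 in wild-type library 5 at 9 months was low, at 4.30 log2 CPM (19.5 CPM), against 4.66 in the next, and this library held the lowest value of its group for 6 of the 10 genes.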

How the results depend on the processing

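The 9-month decrease was called for 7 to 9 members in the 12 alternatives. The count for the genotype mean over ages, 4, ran from 0 to 6: 6 with DESeq2, 6 with voom, 5 with GC offsets, 3 with RLE size factors, 1 without a filter, 1 without the libraries that stood apart, 1 without those with extreme GC trends, 0 on log2(TPM + 1) and 0 with marker covariates, where folds stayed close to those reported. At 3 months voom called 1 member and 1927 of 17240 genes. At 17 months DESeq2 called 1 member and 272 genes, and GC offsets with the replicate block called 1 member and 320 genes. From 3 to 17 months in wild type, 7 were called without the libraries that stood apart, beside 3740 of 17305 genes. In the same comparison Pou4f2 was lost on log2(TPM + 1) (adjusted p = 0.0653). Wild-type Thy1 passed in 6 of 12 alternatives and Efemp1ki/ki Rbpms in 5 of 12. Efemp1ki/ki Nefh was lost with voom (-0.13, adjusted p = 0.0909), without the libraries that stood apart (0.0501) and without extreme GC trends (0.0523). Over all genes, calls between genotypes ran over the alternatives from 21 to 1927 at 3 months (316 reported), from 1 to 682 at 17 months (70 reported) and from 283 to 2008 in the mean over ages (903 reported). With covariates 2026 genes passed at 9 against 3 months (5865 reported), and with voom 4721 from 3 to 17 months in wild type (3071 reported). On log2(TPM + 1) the calls of all genes leaned higher (4387 of 6130 at 9 against 3 months, against 3000 of 5865, and 1676 of 2008 in the genotype mean, against 439 of 903), as did those at 3 months (580 of 648, against 166 of 316), at 17 months (579 of 682, against 31 of 70), from 3 to 17 months (2857 of 3490 in Efemp1ki/ki, against 1680 of 3233, and 3287 of 3936 in wild type, against 1705 of 3071) and from 9 to 17 months (2608 of 4039, against 2190 of 4662). The causes were not tested.

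No value past the threshold changed sign. Uncalled values that did, on the log2 scale, were these. Between genotypes at 3 months, Nefh was 0.022 on log2(TPM + 1), 0.031 with GC offsets and 0.033 with offsets and the block. At 9 months, Isl2 was -0.011 on log2(TPM + 1). At 17 months, Isl2 was 0.012 with voom, 0.020 on log2(TPM + 1), 0.0048 without the libraries that stood apart and 0.0071 without extreme GC trends. From 3 to 17 months, Isl2 in Efemp1ki/ki was 0.037 with covariates, and Sncg in wild type was -0.024 with voom, -0.0010 with covariates, -0.051 without the libraries that stood apart and -0.034 without extreme GC trends. From 9 to 17 months on log2(TPM + 1), Rbpms was 0.037, Sncg -0.044, Nefh -0.010, Pou4f1 0.015, Slc17a6 0.058 and Isl2 -0.062. In the same interval with GC offsets, Sncg was -0.019, Nefm -0.034, Nefh -0.0051 and Slc17a6 0.021, and Rbpms was 0.0025 without extreme GC trends. In the interaction, Thy1 was 0.016 with voom, and Pou4f1 was 0.00046 without a filter, 0.035 with voom and 0.024 with covariates.

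Same-numbered libraries showed little likeness: 23 pairs of Efemp1ki/ki and wild-type libraries of the same age had correlations of -0.18 to 0.16 (median 0.00063). The 3 over 0.1 were all at 3 months. Differently numbered pairs were not set beside them, so this cannot decide whether the numbers mark shared batches. With the replicate block, 3 members were called in the genotype mean, 9 at 9 against 3 months, and Thy1 at 9 months between genotypes was 0.00046. With GC offsets and the block from 9 to 17 months, Sncg was -0.016, Nefm -0.030, Nefh -0.0042 and Slc17a6 0.015.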
